A study of Rattus norvegicus with 18 samples.

Results

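Integrin subunit genes were followed in the livers of control, NASH and NASH-CH rats. The 10 members, Itga1, Itga2, Itga3, Itga5, Itga6, Itga8, Itgav, Itgb1, Itgb6 and Itgb8, were taken by gene symbol from 32623 quantified genes, and each matched 1 row. Liver RNA was sequenced as 1 library per rat from 6 male Wistar rats per group. Control rats received standard chow and plain water for 12 weeks. NASH rats inhaled CCl4, a hepatotoxin, and drank phenobarbital for 6 weeks, and were then fed a diet rich in fat and cholesterol (HFCD) for 4 weeks. NASH-CH rats, the cirrhotic group, had CCl4 and phenobarbital for 24 weeks, with the HFCD during the last 16. This schedule is that of the study's methods, by which CCl4 had ended before the tissue of the NASH rats was taken but not before that of the NASH-CH rats, and the 3 protocols differed in length. Ages are not given in the sources used here. The deposited design text differs from it, since it gives CCl4 with the diet for 10 weeks in NASH and for 24 weeks in NASH-CH, and whether NASH rats still had CCl4 at the end was not settled here.

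Integrins are cell surface receptors made of an alpha and a beta subunit, and they tie the cytoskeleton to the matrix around the cell. The Itgb1 protein pairs with many alpha subunits. With Itga1 or Itga2 it binds collagen, with Itga3 or Itga6 laminin, with Itga5 fibronectin, and with Itga8 nephronectin and other ligands that carry an RGD motif. The Itgav protein pairs with several beta subunits, and with Itgb6 or Itgb8 it can release TGF beta from its latent complex, a step known from epithelial fibrosis. In liver, Itga1 and Itga5 are carried by several cell types, Itga8 is best known from mesenchymal cells such as stellate cells and smooth muscle, and Itgb6 from injured bile duct epithelium. In whole liver RNA, fewer cells of a type and less RNA per cell cannot be told apart.

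The total of expected counts ran from 19498534 to 29491947 in control and NASH rats and from 44680344 to 60117822 in NASH-CH rats, so depth cannot be told apart from the NASH-CH condition. Small non-coding RNA genes took 16.1% to 22.4% of the counts in control, 14.7% to 17.3% in NASH and 11.1% to 13.1% in NASH-CH rats, and the part of this share in the results was not tested beyond a fit without those genes. Alb, the albumin gene that marks hepatocytes, stood between 41374 and 131558 CPM, read counts relative to the TMM-scaled library total, in the 18 livers. The lowest value was that of NASH-CH rat 5. NASH-CH rat 5 stood apart within its group: it had the highest level of the 6 NASH-CH rats in 25.4% of the 12904 tested genes, against 10.9% to 20.9% for the other 5. The NASH-CH results of the members by the main test, limma-voom, are given with and without it. Other tools, scalings and filters were not run without rat 5. This rat was singled out because earlier results of these data had shown it to be far from its group for integrins.

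Of the 10 members, 9 passed the filter on low counts, and Itga2 did not. Itgb8 passed it through the NASH-CH rats, where it was higher, so its call is conditional on that. Against controls, Itga8 and Itgb8 rose in NASH-CH rats, and Itga5 fell in NASH rats. Between the models, Itga8 was higher in NASH-CH than in NASH rats. The other members did not pass the test in any of the 3 comparisons of the 18 rats. Between NASH and control rats 1 of the 9 members had an adjusted p under 0.05, where 3.12% of all tested genes did. Between NASH-CH and control rats it was 2 of 9, against 17.0% of all tested genes, and between NASH-CH and NASH rats 1 of 9, against 4.20%. Without NASH-CH rat 5 the counts were 2 of 9 (5.57% of all tested genes), 2 of 9 (16.9%) and 2 of 9 (3.91%). The median log2 fold change of the 9 members was 0.05 in NASH and 0.64 in NASH-CH, relative to controls, and 0.36 in NASH-CH without rat 5, where the median of all tested genes was 0.01 in each model. The tests are those of limma-voom with Benjamini-Hochberg adjustment over all tested genes. The balance of all calls depended on the scaling. With TMM 204 genes were called higher and 199 lower in NASH, 1082 and 1110 in NASH-CH, and 234 and 308 between the models, and with library size only these were 785 and 80, 2781 and 489, and 119 and 248.

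**Figure D1:**
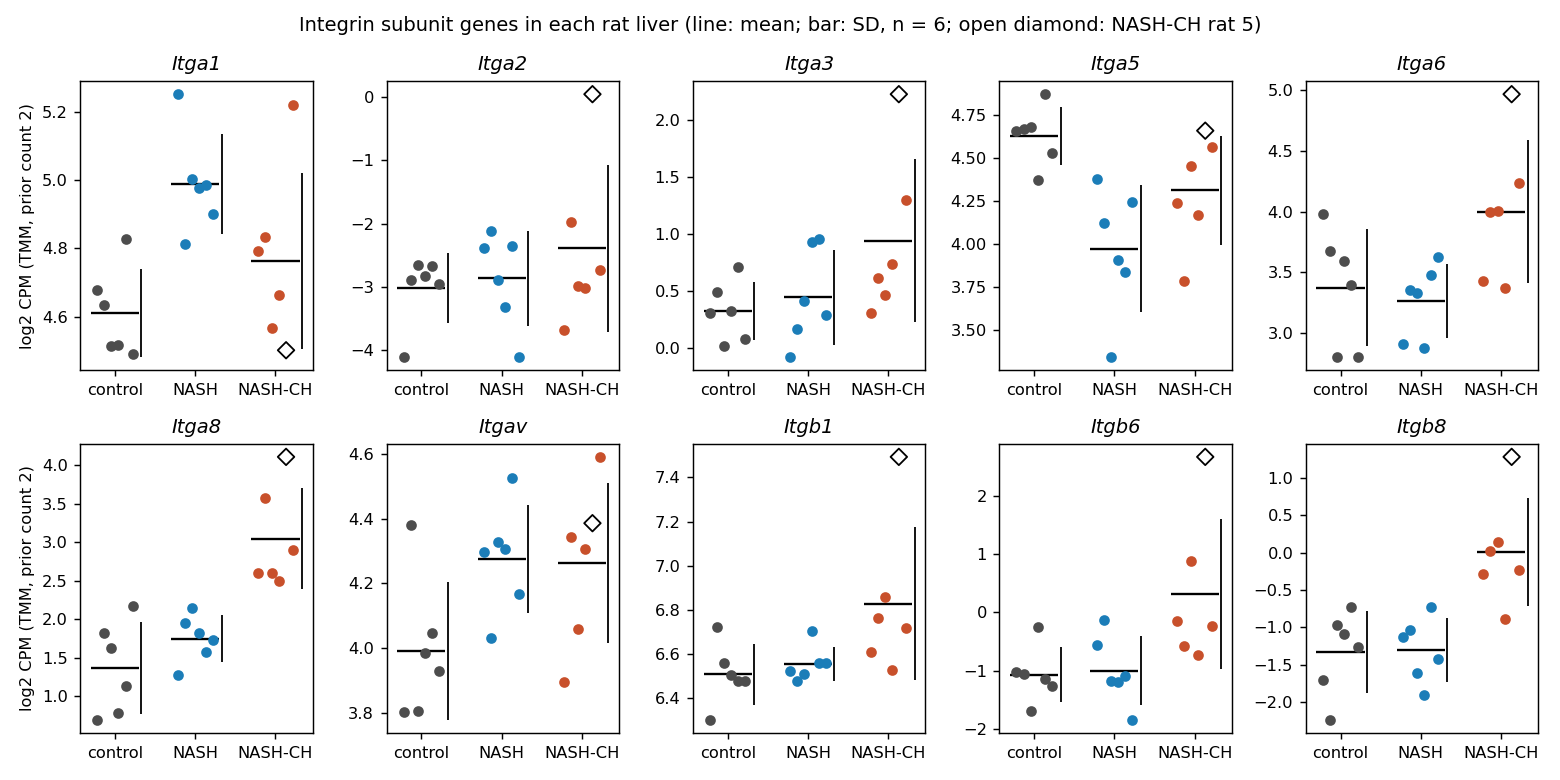
Level of each integrin subunit gene (y axis, log2 CPM with a prior count of 2) in each rat of the 3 groups (x axis). Each point is 1 rat, lines are group means, bars are SD (n = 6), and the open diamond is NASH-CH rat 5, which lies at the top of its group in 8 of the 10 panels and at the bottom for Itga1.

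**Figure D2:**
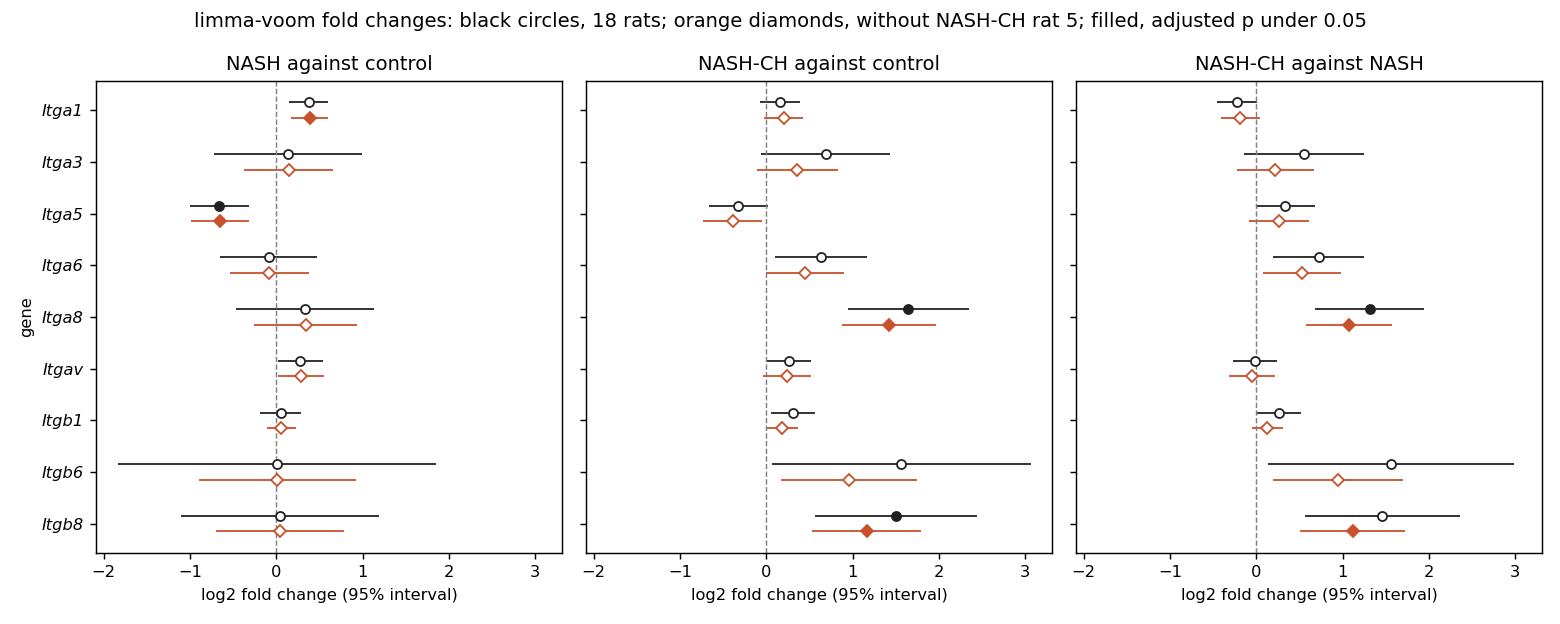
Log2 fold change with its 95% interval (x axis) of the 9 tested members (y axis) in the 3 comparisons. Black circles use all 18 rats, orange diamonds leave out NASH-CH rat 5, and filled symbols have an adjusted p under 0.05. Itga8 is filled in both fits of both NASH-CH panels and Itga5 in both fits of the NASH panel, whereas Itga1 in NASH and Itgb8 in NASH-CH against NASH are filled only without rat 5.

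The 3 members that passed a test are shown with the 250 bases upstream of their start, as RefSeq gives them for the GRCr8 assembly. Of the 10 members, 9 had an entry in that table. The counts were made on Rnor_6.0, and the coordinates are those of GRCr8 only. Each sequence is written 5′ to 3′ on the gene's strand, and capitals mark the motifs found. The motifs searched on both strands were the AP-1 motif TGANTCA, the SP1 motif GGGCGG, the TEAD motif GGAATG and the TATA box TATAAA, and none of the 4 contains another. Itga8 is on chromosome 17, minus strand, chr17:80410634-80410883. Itgb8 is on chromosome 6, minus strand, chr6:146351246-146351495. Itga5 is on chromosome 7, minus strand, chr7:136381306-136381555.
Itga8: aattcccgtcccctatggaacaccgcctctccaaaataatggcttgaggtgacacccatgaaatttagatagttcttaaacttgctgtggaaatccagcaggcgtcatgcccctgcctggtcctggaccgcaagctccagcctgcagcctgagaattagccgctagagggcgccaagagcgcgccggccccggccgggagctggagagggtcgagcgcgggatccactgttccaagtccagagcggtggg
Itgb8: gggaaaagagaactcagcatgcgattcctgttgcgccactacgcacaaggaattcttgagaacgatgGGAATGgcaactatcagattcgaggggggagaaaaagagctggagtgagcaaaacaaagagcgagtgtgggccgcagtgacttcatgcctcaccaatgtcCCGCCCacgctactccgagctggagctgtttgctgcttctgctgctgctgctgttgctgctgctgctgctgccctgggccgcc
Itga5: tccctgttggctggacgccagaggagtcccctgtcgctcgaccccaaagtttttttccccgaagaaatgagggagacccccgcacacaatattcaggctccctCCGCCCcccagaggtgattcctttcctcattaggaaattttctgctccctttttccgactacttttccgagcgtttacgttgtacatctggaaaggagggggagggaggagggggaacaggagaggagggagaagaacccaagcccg
The Itga8 window held no match to the 4 motifs. The Itgb8 window held 1 TEAD and 1 SP1 motif, and the Itga5 window 1 SP1 motif. Over all 33469 promoter windows of the same length, 30.5% held the SP1, 12.1% the TEAD, 12.9% the TATA and 6.34% the AP-1 motif. Of the 9 members' windows, 6 held the SP1 and 3 the TEAD motif, and none held the AP-1 or the TATA motif. A match describes the letters and does not show that a factor binds.

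Levels of different genes are not compared here, because no gene lengths were used. Of the collagen receptor subunits, Itga1 in control rats ran from 22.4 to 28.3 CPM with a median of 23.8. In NASH rats it ran from 28.1 to 38.0 CPM with a median of 31.5, and 5 of the 6 lay above every control rat. The log2 fold change in NASH was 0.38 (SE 0.11, adjusted p = 0.0593), just short of the threshold, and it passed when NASH-CH rat 5 (adjusted p = 0.0376) or NASH-CH rat 6 (adjusted p = 0.0196) was left out of the shared fit. DESeq2 also called it (adjusted p = 0.0247), the log2 fold change was 0.60 with library size only (adjusted p = 0.0184), and over the 11 alternatives with all rats the adjusted p ran from 0.0118 to 0.0911. The NASH-CH rats ran from 22.6 to 37.2 CPM with a median of 26.5, and here rat 5 was the lowest of its group. The difference from controls was 0.16 (SE 0.11, adjusted p = 0.345), and 0.20 without rat 5 (adjusted p = 0.211). Against NASH rats it was -0.22 (SE 0.11, adjusted p = 0.298), and -0.18 without rat 5 (adjusted p = 0.432).

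Itga2 was close to the limit of detection. Control rats had 0 to 2 counts and NASH rats 0 to 4 counts of this gene. In the control and the NASH rat with 0 counts, up to 0.187 and 0.0948 CPM would be allowed by counting error alone. NASH-CH rats other than rat 5 had 1 to 9 counts, and rat 5 had 75 counts, or 0.974 CPM, where the next NASH-CH rat had 0.196. A two-sided exact permutation test of log2 CPM gave p = 0.377 for NASH-CH against control rats and p = 0.753 without rat 5.

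Itga5, the fibronectin receptor subunit, was the one member that fell in NASH. Control rats ran from 20.6 to 29.3 CPM with a median of 25.3, and NASH rats from 10.1 to 20.8 CPM with a median of 16.1. The highest NASH rat lay just above the lowest control rat, and the other 5 lay below all controls. The level in NASH was 0.633 times that of controls, a log2 fold change of -0.66 (SE 0.16, 95% interval -1.0 to -0.32, adjusted p = 0.0347). This call was close to the threshold. It was lost without control rat 1, 3, 4 or 5 (adjusted p = 0.0748, 0.0766, 0.0533 and 0.0862) and without NASH rat 3, 4 or 5 (adjusted p = 0.0902, 0.0752 and 0.0774), with log2 fold changes from -0.74 to -0.53 over all fits that left out 1 rat. NASH-CH rats lay between, from 13.7 to 25.2 CPM with a median of 20.3. Their difference from controls was -0.32 (SE 0.16, adjusted p = 0.180), or -0.39 without rat 5 (adjusted p = 0.110). Between NASH-CH and NASH rats the difference was 0.34 (SE 0.16, adjusted p = 0.295), or 0.26 without rat 5 (adjusted p = 0.465), so the lower level was not shown to be particular to NASH.

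Itga8, the subunit that binds nephronectin and is carried by mesenchymal cells, separated the cirrhotic rats from the others. Control rats ran from 1.56 to 4.45 CPM with a median of 2.58, and NASH rats from 2.36 to 4.36 CPM with a median of 3.37. NASH-CH rats ran from 5.57 to 17.2 CPM with a median of 6.70. Every NASH-CH rat therefore lay above every control and NASH rat, which among the tested members held for Itga8 alone. Groups that do not overlap were found in 7.11% of all tested genes for NASH-CH against control and in 3.46% for NASH-CH against NASH rats.

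The level of Itga8 in NASH-CH was 3.13 times that of controls, a log2 fold change of 1.65 (SE 0.33, 95% interval 0.95 to 2.35, adjusted p = 0.00279). Rat 5 was the highest with 17.2 CPM and rat 2 was next with 11.9, while the other 4 were at or below 7.38 CPM. Without rat 5 the log2 fold change was 1.42 (SE 0.26, adjusted p = 0.00127), that is 2.68 times the control level. Against NASH rats the difference was 1.31 (SE 0.30, adjusted p = 0.0162) with rat 5 and 1.08 (SE 0.24, adjusted p = 0.0127) without it. NASH and control rats did not differ beyond their spread (0.33, SE 0.38, 95% interval -0.46 to 1.13, adjusted p = 0.655). Both NASH-CH calls held in all 18 fits that each left out 1 rat.

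Itgav, the alpha subunit shared by the receptors that release TGF beta, ran from 13.9 to 20.8 CPM in control rats (median 15.5), from 16.3 to 23.0 CPM in NASH rats (median 19.7) and from 14.8 to 24.1 CPM in NASH-CH rats (median 20). The 3 groups overlapped. The log2 fold change was 0.28 (SE 0.12, adjusted p = 0.199) in NASH and 0.26 (SE 0.12, adjusted p = 0.149) in NASH-CH, relative to controls. Between the models it was -0.01 (SE 0.12, 95% interval -0.27 to 0.24, adjusted p = 0.970). Rat 5 was second of its group, with 20.9 CPM, and without it the NASH-CH difference was 0.24 from controls (adjusted p = 0.221) and -0.05 from NASH rats (adjusted p = 0.910). With library size only the difference from controls was 0.52 and passed (adjusted p = 0.0360).

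Of the laminin receptor subunits, Itga6 ran from 6.91 to 15.7 CPM in control rats (median 11.2) and from 7.30 to 12.3 CPM in NASH rats (median 10.1). NASH-CH rats ran from 10.3 to 31.3 CPM with a median of 16, and 4 of 6 lay above all controls. The log2 fold change was 0.64 (SE 0.25, adjusted p = 0.0931) against control and 0.72 (SE 0.25, adjusted p = 0.121) against NASH rats, and without rat 5 it was 0.45 (adjusted p = 0.165) and 0.53 (adjusted p = 0.212). Against controls it passed without NASH-CH rat 1 (adjusted p = 0.0496) or rat 4 (adjusted p = 0.0466), and by DESeq2 (adjusted p = 0.0482 against control and 0.0284 against NASH rats). Its difference between NASH and control rats was -0.09 (SE 0.27, adjusted p = 0.884).

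Itga3 ran from 0.959 to 1.59 CPM in control rats (median 1.19), from 0.891 to 1.88 CPM in NASH rats (median 1.22) and from 1.18 to 4.62 CPM in NASH-CH rats (median 1.55). The top value was that of rat 5, and the next NASH-CH rat had 2.41 CPM. The log2 fold change in NASH-CH was 0.69 (SE 0.36, adjusted p = 0.194) against controls, and 0.36 (SE 0.22, adjusted p = 0.286) without rat 5. Against NASH rats it was 0.55 (SE 0.33, adjusted p = 0.414) and 0.22 (adjusted p = 0.680), and between NASH and control rats 0.14 (SE 0.41, adjusted p = 0.882).

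Itgb1, the common partner of the alpha subunits, had nearly the same level in control and NASH rats. Control rats ran from 78.8 to 106 CPM (median 89.9) and NASH rats from 89.0 to 104 CPM (median 93.0), with a log2 fold change of 0.05 (SE 0.12, 95% interval -0.19 to 0.29, adjusted p = 0.842). NASH-CH rats other than rat 5 ran from 92.1 to 116 CPM, and rat 5 had 180 CPM. The NASH-CH difference from controls was 0.31 (SE 0.12, adjusted p = 0.0879) with rat 5 and 0.19 (SE 0.09, adjusted p = 0.149) without it. Against NASH rats it was 0.26 (SE 0.12, adjusted p = 0.280) and 0.13 (adjusted p = 0.509). With library size only the NASH-CH difference from controls was 0.58 and passed (adjusted p = 0.0258).

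Itgb8, a beta subunit that pairs with Itgav, was at low counts in every group. It passed the low-count filter through the NASH-CH rats, and it was dropped in a fit of control and NASH rats alone. Control rats had 4 to 11 counts and NASH rats 5 to 16, that is 0.154 to 0.545 CPM and 0.210 to 0.548 CPM, and the ranges overlapped. NASH-CH rats had 22 to 183 counts, or 0.480 to 2.38 CPM with a median of 0.875. Rat 4 lay within the control range, and the other 5 lay above all controls. The level in NASH-CH was 2.84 times that of controls, a log2 fold change of 1.5 (SE 0.45, 95% interval 0.57 to 2.44, adjusted p = 0.0276). Without rat 5 it was 1.16 (SE 0.30, adjusted p = 0.0139), or 2.24 times the control level. The call was lost without control rat 1, 2 or 4 (adjusted p = 0.0591, 0.0674 and 0.0511). Between the models the difference was 1.46 (SE 0.43, adjusted p = 0.0603), and it passed without NASH-CH rat 5 (1.12, SE 0.29, adjusted p = 0.0353) or rat 4 (1.64, adjusted p = 0.0225), by edgeR (adjusted p = 0.0161) and by DESeq2 (adjusted p = 0.00322). Between NASH and control rats it was 0.04 (SE 0.55, adjusted p = 0.977).

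Itgb6, the other beta subunit known for releasing TGF beta, had a similar fold change to Itgb8 and a wider spread. Control rats ran from 0.252 to 0.785 CPM (median 0.410) and NASH rats from 0.221 to 0.857 CPM (median 0.398). NASH-CH rats other than rat 5 ran from 0.546 to 1.79 CPM, and rat 5 had 484 counts, or 6.29 CPM. The log2 fold change against controls was 1.57 (SE 0.72, 95% interval 0.06 to 3.07, adjusted p = 0.141), and 0.96 (SE 0.37, adjusted p = 0.0871) without rat 5. Against NASH rats it was 1.56 (SE 0.68, adjusted p = 0.231), and 0.95 (SE 0.36, adjusted p = 0.172) without rat 5. The main test thus did not call Itgb6, but edgeR's quasi-likelihood test (2.03, adjusted p = 0.0189) and DESeq2 (2.03, adjusted p = 0.00276) called it against controls, and DESeq2 did against NASH rats too (adjusted p = 0.00981). These edgeR and DESeq2 fits included rat 5 and were not run without it. Between NASH and control rats the log2 fold change by limma was 0.01 (SE 0.88, adjusted p = 0.998). For NASH-CH against control, the adjusted p of Itgb6 ran from 0.00276 to 0.217 across the 10 alternatives that fitted it with all rats of the 2 groups.

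NASH-CH rat 5 was the highest of its 6 rats for 8 of the 10 members. Its log2 distance from the median of the other 5 was 3.03 for Itga2, 2.90 for Itgb6, 1.61 for Itga3, 1.52 for Itgb8 and 1.51 for Itga8. It was smaller for Itga6 (0.97), Itgb1 (0.78) and Itga5 (0.42). Itgav lay 0.08 above that median and Itga1 0.29 below it, so the collagen receptor subunits Itga1 and Itga2 stood at opposite ends in this liver. Among the other 13 tested integrin subunits it was the highest in 7 and the lowest in 4. As this rat was singled out for its integrin levels, these values describe it and test nothing.

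**Figure D3:**
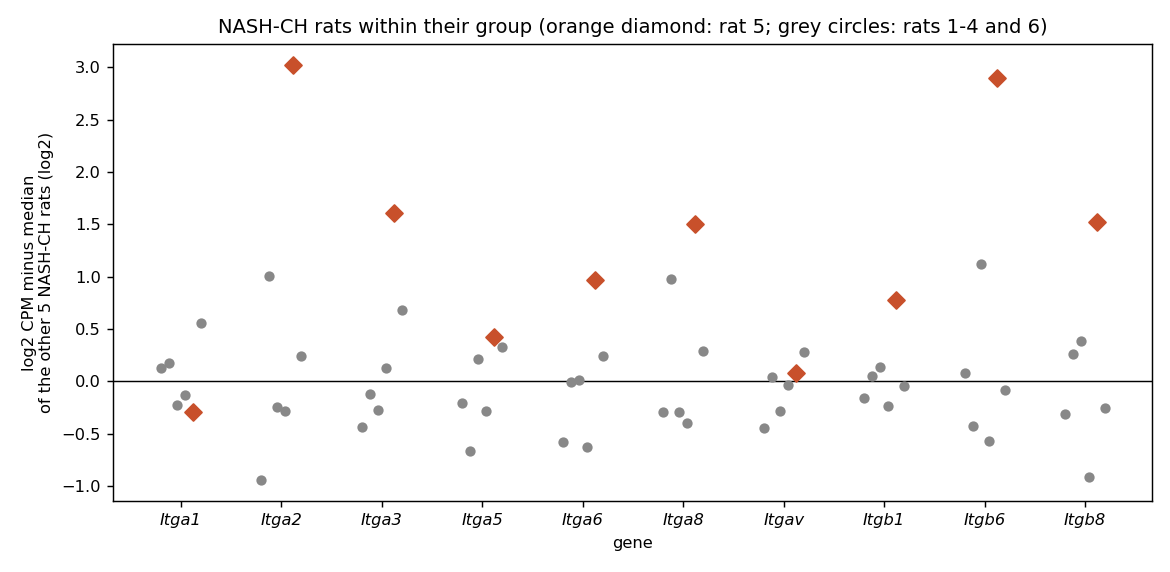
Log2 CPM of each NASH-CH rat minus the median of the other 5 NASH-CH rats (y axis) for each member (x axis). Orange diamonds are rat 5 and grey circles the other rats. Rat 5 lies 3.03 log2 units above the median of the other 5 for Itga2 and 2.90 above it for Itgb6, and it is the lowest rat for Itga1.

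Marker lists were summed in each rat to show what else moved with these genes. In NASH-CH rat 5 the 5 proliferation markers summed to 62.8 CPM, against 3.46 to 5.06 in the other NASH-CH rats, 7.21 to 30.4 in control and 1.81 to 3.25 in NASH rats. Its 5 mesothelial markers summed to 14.6 CPM (1.22 to 3.22 in the other NASH-CH rats), and its 10 lymphocyte and neutrophil markers to 44.8 CPM (20.6 to 25.4). It had the lowest sums of its group for the 7 sinusoidal endothelial markers, 148 CPM against 235 to 278, and for the 10 hepatocyte markers, 92150 CPM against 110437 to 149247. The bile duct keratin genes Krt19 and Krt7 stood at 6.08 and 1.68 CPM in rat 5, where the other NASH-CH rats did not exceed 1.78 and 0.620, while its sum over the 12 cholangiocyte markers, 104 CPM, lay within the 52.3 to 115 CPM of the other 5. The mean log2 CPM of those markers was 1.79 in rat 5 against -0.26 to 0.55 in the other 5, and rat 5 was the highest of its group in 4 of the 7 tested cholangiocyte markers and the lowest in 0. The part of these cells in the integrin levels of this liver was not tested.

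**Figure D4:**
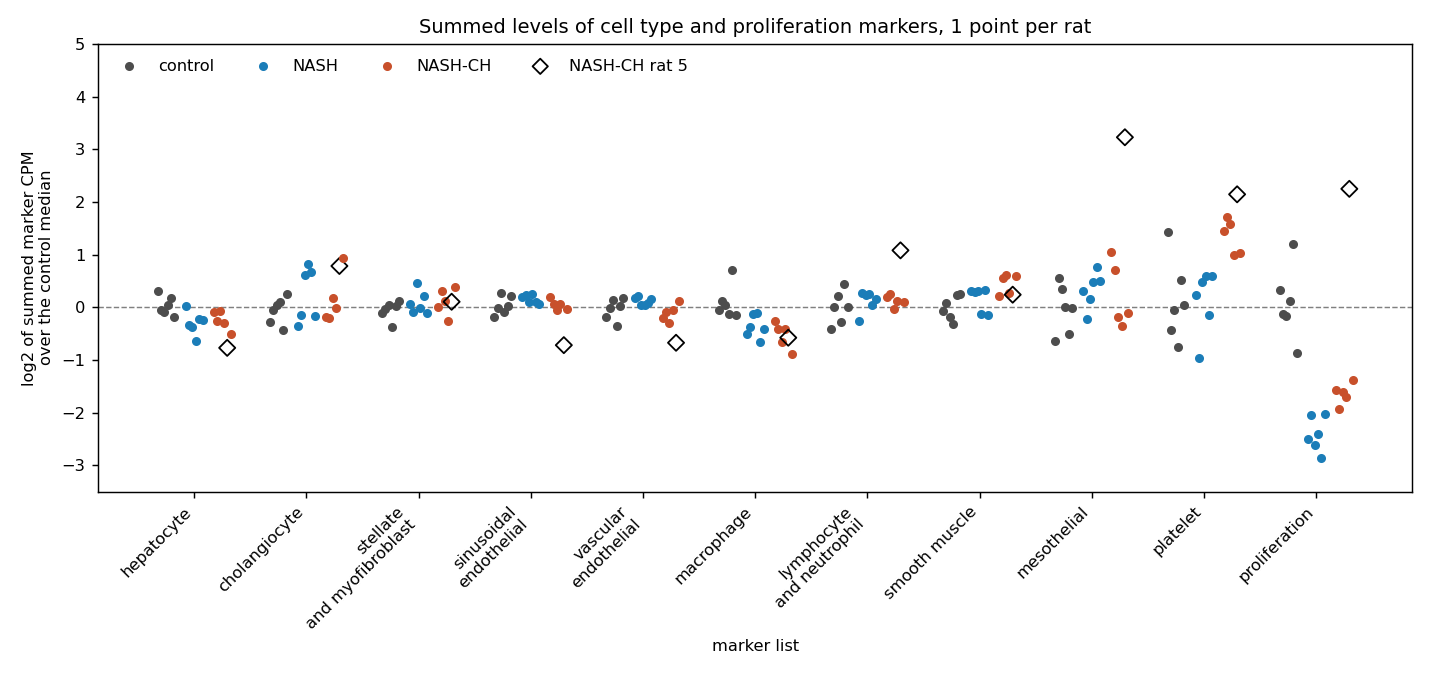
Log2 of the summed CPM of each marker list over the control median (y axis) for each list (x axis), with 1 point per rat coloured by group. The open diamond, NASH-CH rat 5, lies above its group for proliferation, mesothelial, platelet and lymphocyte and neutrophil markers and below it for sinusoidal endothelial, vascular endothelial and hepatocyte markers.

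Beside Itga8, the 12 stellate and myofibroblast markers summed to 90.0 to 126 CPM in control, 109 to 160 in NASH and 97.5 to 152 in NASH-CH rats. Their summed level thus overlapped between the groups where Itga8 did not. Their mean log2 CPM ran from 1.56 to 1.89 in control, 1.60 to 1.78 in NASH and 1.72 to 2.54 in NASH-CH rats. By that mean only NASH-CH rat 4, with the 1.72, did not lie above every control and NASH rat. Of the 11 tested, limma called 3 higher and 1 lower in NASH-CH, where 8.38% of all tested genes were higher. By edgeR 6 were higher and by DESeq2 7, and each called 1 lower. Over all tested genes these tools called 2449 and 2841 in either direction. By limma 8 of the 11 had an unadjusted p under 0.05, where 31.7% of all tested genes did. The median log2 fold change of these 11 was 0.63, and 0.38 without rat 5. Acta2, the smooth muscle actin gene of activated stellate cells, averaged 1.32 ± 0.350 CPM in control rats, 1.32 ± 0.390 CPM in NASH rats and 2.56 ± 1.05 CPM in NASH-CH rats (SD, 6 rats each), and did not pass in NASH-CH (adjusted p = 0.0758). The 4 smooth muscle markers summed to 9.71 to 14.3 CPM in control and 14.0 to 18.3 in NASH-CH rats. Beside Itgb6 and Itgb8, the 12 cholangiocyte markers summed to at most 71.6 CPM in control rats and 106 CPM in NASH rats, and to 52.3 to 115 CPM in NASH-CH rats. The median log2 fold change of the tested ones was 0.58 in NASH-CH, and 0.25 without rat 5. Of their 7 tested genes limma called 0 in either model. At an unadjusted p under 0.05 there were 0 in NASH and 2 in NASH-CH, against 21.5% and 31.7% of all tested genes. By edgeR and by DESeq2 0 were called in NASH and 1 in NASH-CH. The 8 macrophage markers had sums of 269 to 489 CPM in control, 189 to 279 CPM in NASH and 161 to 251 CPM in NASH-CH rats. Of the 8, 6 fell in NASH-CH (4 without rat 5) and 1 in NASH. Of the 12904 tested genes, 1110 were called lower in NASH-CH and 199 in NASH with all rats. The part of any of these cells was not tested.

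Of 16 other integrin subunits listed, 15 were matched by symbol and 13 were tested. In NASH-CH, Itga9, which binds tenascin and other matrix proteins, rose by 0.52 (SE 0.14, adjusted p = 0.0204), and Itga2b, the platelet integrin subunit, fell by 0.66 (SE 0.17, adjusted p = 0.0118) on the log2 scale, and both calls held without rat 5. The 4 platelet markers summed to 0.248 to 1.12 CPM in control and 0.830 to 1.84 CPM in NASH-CH rats, and the 1 that was tested rose in NASH-CH. The other 11 were Itga4, Itga7, Itgad, Itgae, Itgal, Itgax, Itgb2, Itgb3, Itgb4, Itgb5 and Itgb7. With limma they had log2 fold changes from -0.11 to 0.96 and did not pass. Of the 13, limma called 1 higher and 1 lower, edgeR 2 higher and 1 lower, and DESeq2 3 higher and 1 lower. Over all tested genes these tools called 2192 (17.0%), 2449 and 2841 in either direction. Itgb4, the laminin partner of Itga6, had 0.90 (SE 0.37, adjusted p = 0.107), or 0.57 without rat 5 (adjusted p = 0.0885). Itgb5, another partner of Itgav, had 0.17 (SE 0.10, adjusted p = 0.259), or 0.22 without rat 5 (adjusted p = 0.157). In NASH limma called 0 of the 13, with 2 at an unadjusted p under 0.05 (21.5% of all tested genes; 31.7% in NASH-CH), while edgeR and DESeq2 each called 1. Between NASH-CH and NASH rats limma called 0, with 3 at an unadjusted p under 0.05 (17.5% of all tested genes), while edgeR and DESeq2 each called 1.

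Among the ligands of these receptors, 7 of 24 tested genes rose in NASH-CH and 0 fell, relative to controls. With all rats limma called 8.38% of all tested genes higher. Without rat 5 limma called 8 ligands higher, where 16.9% of all tested genes were called in either direction. With all rats edgeR called 11 and DESeq2 14 ligands higher. Over all tested genes these tools called 2449 and 2841 in either direction. The median log2 fold change of the 24 ligands was 0.46 with all rats. Thbs1, thrombospondin, rose by 1.72 (SE 0.30, adjusted p = 0.000819), Npnt, the nephronectin that Itga8 binds, by 1.22 (SE 0.34, adjusted p = 0.0211), Vwf by 1.13 (SE 0.23, adjusted p = 0.00245) and Col1a1 by 1.02 (SE 0.28, adjusted p = 0.0186). These 4 passed without rat 5 as well. Fn1, the fibronectin that Itga5 binds, did not pass in NASH (0.45, SE 0.22, adjusted p = 0.245) or in NASH-CH (0.34, SE 0.23, adjusted p = 0.329), nor did Vtn, vitronectin (0.13 and 0.04, adjusted p = 0.730 and 0.896). Without rat 5 the NASH-CH values were 0.48 for Fn1 (adjusted p = 0.137) and 0.19 for Vtn (adjusted p = 0.431). In NASH limma, edgeR and DESeq2 each called 0 ligands. By limma 5 of the 24 had an unadjusted p under 0.05, where 21.5% of all tested genes did. Without NASH-CH rat 5 limma called Nid1, nidogen (0.35, adjusted p = 0.0324), where 5.57% of all tested genes were called. Between NASH-CH and NASH rats 4 were higher, where 1.81% of all tested genes were, Spp1 (1.61, adjusted p = 0.0153), Thbs1 (1.24, adjusted p = 0.0196), Col1a1 (1.01, adjusted p = 0.0451) and Col3a1 (0.49, adjusted p = 0.0457), and without rat 5 the last pair no longer passed (adjusted p = 0.0672 and 0.0803).

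Of the adaptors that link integrin tails to actin, 7 of 27 tested genes rose in NASH-CH (5 without rat 5). With all rats 8.38% of all tested genes were called higher there. In NASH 2 adaptors rose, where 1.58% of all tested genes were called higher, and 0 fell in either model. The tensins led. Tns1 averaged 25.8 ± 9.71 CPM in control rats, 49.1 ± 13.7 CPM in NASH rats and 60.1 ± 15.6 CPM in NASH-CH rats (SD, 6 rats each), with log2 fold changes of 0.96 (SE 0.22, adjusted p = 0.0279) and 1.25 (SE 0.24, adjusted p = 0.00152). Tns3 rose by 0.66 (SE 0.16, adjusted p = 0.0295) and 0.90 (SE 0.16, adjusted p = 0.000919). Tns2 (0.76, adjusted p = 0.0467) and the kinase gene Src (0.56, adjusted p = 0.0241) rose in NASH-CH, and so did Flna, filamin (0.42, adjusted p = 0.0338), which was lost without rat 5 (adjusted p = 0.0610). Tln1, talin, at 0.19 (SE 0.12, adjusted p = 0.295), Fermt2, a kindlin, at -0.02 (SE 0.08, adjusted p = 0.871) and Ilk, integrin-linked kinase, at -0.09 (SE 0.07, adjusted p = 0.403) did not pass in NASH-CH, nor did they without rat 5 (0.20, -0.01 and -0.05, adjusted p = 0.306, 0.952 and 0.657). Between the models, where 1.81% of all tested genes were higher, Flna (0.54, adjusted p = 0.0248) and Rsu1 (0.40, adjusted p = 0.0435) were higher in NASH-CH. Rsu1 was not called without rat 5 (adjusted p = 0.0710).

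The genes around latent TGF beta included 4 of 16 that rose in NASH-CH, where 8.38% of all tested genes were higher, with 0 lower. Ltbp1 and Ltbp2, which encode latent TGF beta binding proteins, rose by 1.26 (SE 0.22, adjusted p = 0.000764) and 1.66 (SE 0.47, adjusted p = 0.0230). Ctgf, a TGF beta responsive gene, rose by 1.78 (SE 0.44, adjusted p = 0.0106). These 3 passed without rat 5. Tgfb1 itself did not pass (0.09, SE 0.28, adjusted p = 0.843), with -0.004 without rat 5 (adjusted p = 0.995). In NASH limma, edgeR and DESeq2 called 0 of the 16, with 3 at an unadjusted p under 0.05 (21.5% of all tested genes). Between the models, where 1.81% of all tested genes were higher, Ltbp2 (1.79, adjusted p = 0.0339) and Ltbp1 (0.78, adjusted p = 0.0399) were higher in NASH-CH, and Ltbp1 was not called without rat 5 (adjusted p = 0.0660).

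**Figure D5:**
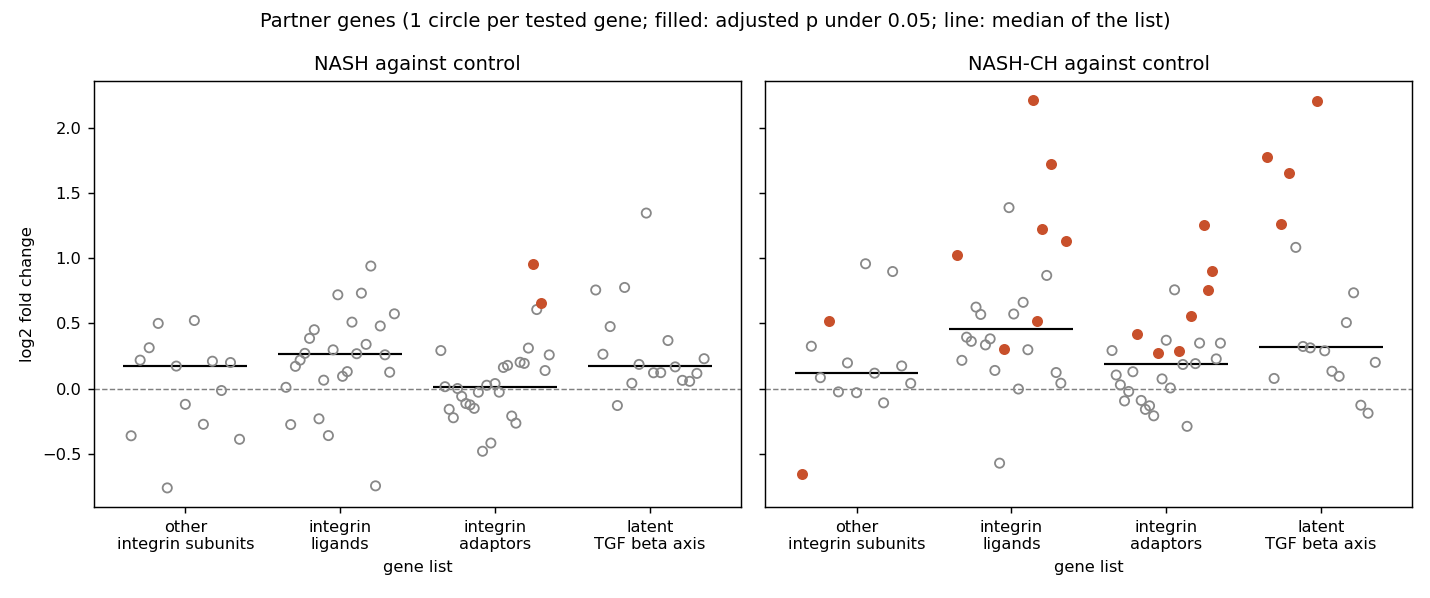
Log2 fold change against controls (y axis) of each tested gene in 4 lists (x axis), for NASH on the left and NASH-CH on the right. Each circle is 1 gene, filled where the adjusted p is under 0.05, and lines are list medians. In NASH-CH 7 ligands, 7 adaptors and 4 genes of the latent TGF beta list are filled above 0, and in NASH 2 adaptors are.

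For each member that passed a test, the most alike of 11600 other named genes were ranked by Pearson's r of log2 CPM after each group's mean was removed, over the 18 rats. As the highest of many, these values carry no p, and the rats share depth and NASH-CH rat 5. For Itga8 they were Plxdc2 (r = 0.88, Spearman's rho = 0.81) and Spn (r = 0.86, rho = 0.86), with r of 0.82 and 0.80 without rat 5. For Itgb8 they were Anxa13 (r = 0.90, rho = 0.83) and Tdp2 (r = 0.87, rho = 0.86), with 0.83 and 0.84 without rat 5. For Itga5 they were Stc1 (r = 0.84, rho = 0.86) and Serpinb8 (r = 0.75, rho = 0.66), with 0.83 and 0.73. Without rat 5 the ranking itself moved for each of the 3 members, with Repin1 second for Itga5, Sh3rf1 first for Itga8, and the pair for Itgb8 in the other order.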

How the data were processed

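Liver RNA-seq of 18 rats, 6 in each of the 3 labelled groups, was analysed. Per the methods, the authors trimmed adapters, aligned TruSeq reads to Rnor_6.0 with STAR in 2 passes, and quantified genes of Ensembl release 95 with RSEM. The processing notes also name FastQC, Trim Galore and limma. Tool versions are not given in the sources used here. The methods and the labels name different RNA extraction kits. The deposited values are RSEM expected counts, with no scaling for depth or length, and 1 table was given per rat. They were rounded, as the methods state.

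Genes kept by edgeR's filterByExpr were scaled by TMM (edgeR 4.0.16) and tested with limma-voom 3.58.1 in R 4.3.3, with 1 fit of 18 rats, a mean per group and Benjamini-Hochberg adjustment. CPM are relative to TMM-scaled totals. Log2 CPM used a prior count of 2. Alternatives included edgeR's quasi-likelihood test, DESeq2 1.42.0, other scalings, filters and weights, thinned NASH-CH counts and leaving out each rat. Rats were left out only in the limma-voom fit with TMM. Scripts were tested on simulated data. All members were named, as were the other tested integrin subunits, up to 5 called genes per partner list and comparison (some are not reported here), and Tln1, Fermt2, Ilk, Fn1, Vtn and Tgfb1. For each called member the 2 most correlated genes were named. Nid1, Repin1 and Sh3rf1 were named after their values were seen. The members and lists were chosen with earlier results of these data known. Of the listed genes, Itgam, Hspg2, Col1a2 and Pecam1 were not matched by symbol and are not analysed here. The genes are reported as RSEM assigned their reads. Limits for a count of 0 are those of 3 counts and cover counting error only. Rats are separate animals. Same-numbered rats were not taken as pairs.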

Additional observations from a re-analysis of the deposited data

Results flagged for a closer look

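Log2 CPM of the 10 members was screened in each of the 3 groups, 30 sets of 6 rats, for a rat far from the other 5 relative to the range of the group (Dixon's ratio, critical value 0.625 for 6 rats). Chance alone flags about 1 in 20 such sets. 3 results came up. Itgb1 in NASH-CH rat 5 stood at 180 CPM where the next rat had 116, a ratio of 0.658, but this rat had already been singled out for its integrin levels, so the chance rate says nothing about it. Itgb1 in NASH rat 4 stood at 104 CPM where the next rat had 94.2, a ratio of 0.640, within a narrow group. Itga2 in control rat 1 had 0 counts where the next rat had 0.0717 CPM, a ratio of 0.798, and the whole group had at most 2 counts. Itga2, Itga3, Itga5, Itga6, Itga8, Itgb6 and Itgb8 were also highest in NASH-CH rat 5, without reaching the critical value on the log2 scale.

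With all 18 rats and limma, Itga8 was the one member whose change from controls differed between the 2 models by a test of the difference itself, with a log2 difference of 1.31 between NASH-CH and NASH rats (SE 0.30, adjusted p = 0.0162). Itgb8 also differed without NASH-CH rat 5 (1.12, adjusted p = 0.0353) and by edgeR (adjusted p = 0.0161), and DESeq2 called Itga6 (adjusted p = 0.0284), Itgb6 (adjusted p = 0.00981) and Itgb8 (adjusted p = 0.00322) beside Itga8. For Itga8, every one of the 6 NASH-CH rats lay above every NASH rat.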

How the results depend on the processing

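The calls of Itga8 for NASH-CH against control held under every alternative with all rats of the 2 groups (log2 fold change 1.60 to 1.93). Against NASH rats they held under 10 of 11, and the adjusted p was 0.0517 with only the groups compared. Itgb8 against controls lost its call with only the groups compared (adjusted p = 0.0656), and Itga5 in NASH with library size only (adjusted p = 0.156) or no low-count filter (adjusted p = 0.0544). Library size only moved the median log2 fold change over all tested genes, relative to controls, to 0.23 (NASH) and 0.27 (NASH-CH), against 0.01 with TMM. Low counts limit Itga2, Itgb6 and Itgb8, and 6 rats per group limit every comparison. The causes were not tested.

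Between NASH and control rats, where 403 genes and 1 member were called, the counts were 652 genes by edgeR, 1228 genes and 2 members by DESeq2, 865 genes with library size only, 268 genes and 0 members without a low-count filter, 644 genes and 2 members with only the groups compared, 1509 genes and 2 members with sample quality weights, and 39 genes and 0 members at an adjusted p under 0.01. Leaving out 1 rat gave 128 to 982 genes (lowest without control rat 3, highest without control rat 6) and 0 to 2 members.

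Between NASH-CH and control rats 2192 genes and 2 members were called. DESeq2 called 2841 genes and 4 members. Library size only gave 3270 genes and 6 members (Itga1, Itga6, Itga8, Itgav, Itgb1 and Itgb8). Without a low-count filter there were 5495 genes and 2 members. At least 10 counts in every sample gave 1920 genes and 1 member (Itgb6 and Itgb8 could not be fitted in that filter). With only the groups compared there were 1408 genes and 1 member, and at an adjusted p under 0.01 849 genes and 1 member. Leaving out 1 rat gave 1519 to 2409 genes and 1 to 3 members.

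Between NASH-CH and NASH rats 542 genes and 1 member were called. There were 617 genes and 2 members by edgeR, and 949 genes and 4 members by DESeq2. Without a low-count filter there were 2649 genes and 2 members, and with only the groups compared 349 genes and 0 members. Sample quality weights gave 774 genes and 2 members, and leaving out small non-coding RNA genes gave 268 genes and 1 member. At an adjusted p under 0.01 it was 239 genes and 0 members. Leaving out 1 rat gave 346 to 591 genes and 1 to 2 members.

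Same-numbered rats deviated together weakly at most, with mean correlations of 0.0516, 0.0732 and 0.0154 in the 3 comparisons. Single pairs ran from -0.12 to 0.17, 0.027 to 0.12 and -0.074 to 0.080. Differently numbered rats were not correlated for reference, so whether the numbers pair the rats was not settled. With the replicate number as a block 444, 2095 and 540 genes were called, and 1, 2 and 2 members, the second member of the last comparison being Itgb8 (adjusted p = 0.00752). The block turned the NASH differences of Itgb6 (-0.045) and Itgb8 (-0.013) below 0.

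Other directions that turned were all of values that had not passed. Itga6 in NASH was 0.13 with library size only and -0.21 to 0.017 when 1 rat was left out. Itgav between the models was 0.020 with library size only, 0.014 with thinned NASH-CH counts and -0.084 to 0.059 when 1 rat was left out. Itgb6 in NASH was -0.034 with sample quality weights and -0.17 to 0.22 when 1 rat was left out, and Itgb8 in NASH -0.19 to 0.17. With CPM by library total, mean control levels moved to 21.9 CPM for Itga1 and 82.3 CPM for Itgb1.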
